A study of Mus musculus with 22 samples.

Results

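The data are H3K27ac ChIP–seq tags at 10 genes of iron and heme handling in Kupffer cells, the liver's own resident macrophages. The genes are Slc40a1, Hmox1, Slc11a1, Slc11a2, Fth1, Ftl1, Tfrc, Hfe, Hfe2 and Slc48a1, chosen by name, and every window that the deposited annotation assigns to 1 of them was taken, 133 of 96381 windows. H3K27ac is an acetylation of histone H3 found at active promoters and enhancers. Each window is 1000 bp long and is centred on an open chromatin (ATAC-seq) peak. An annotation by the nearest start site does not show that the window acts on that gene.

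The cells were sorted from livers of control male mice, 8 to 12 weeks old, of 3 inbred strains: A/J, BALB/cJ and C57BL/6J, with 3 H3K27ac libraries each. A further 3 libraries came from CB6F1/J mice, the F1 hybrid of a BALB/cJ mother and a C57BL/6J father, in which reads over variants are counted per allele. The strains differ at many loci, so a strain difference belongs to no named variant. The labels number the replicates but do not say that each is a separate mouse, and p-values measure the spread between these libraries. In a sorted population, fewer acetylated cells and less acetylation per cell cannot be told apart.

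Total tags in windows ranged from 2291426 to 12980348 per strain library, and allelic tags from 182654 to 400681 per F1 allele column. The second library of each strain was the shallowest and holds values in steps of 0.5, for which no reason is given. All 10 Kupffer cell markers checked had a window at their start site, with a median of 131 normalized counts (20.8 to 308.1), whereas none of the hepatocyte, stellate cell or B, T and NK cell markers had one. Of 8 monocyte and neutrophil markers 2 had one, at 2.4 and 24.8 normalized counts; over all windows near those markers the libraries held 75.0 to 132.9 per window, against 68.5 to 105.3 at the Kupffer cell markers. The window at S100a8 was called in BALB/cJ over C57BL/6J (log2 fold change 1.51 ± 0.44, adjusted p = 0.0271, edgeR), and what part such cells have in the values below was not tested. At 2 of 7 endothelial markers the start-site window held 3.6 and 11.1 normalized counts, and among erythroid markers 1 of 8 had one (Epor, 75.3). The Kupffer cell markers also differed between strains. Of their 161 tested windows, 26 (16.15%, 5 higher and 21 lower) were called in BALB/cJ over C57BL/6J, beside 8.56% of all windows. In A/J over C57BL/6J 16 were called (9.94%, 4 higher and 12 lower, beside 7.09%), and in A/J over BALB/cJ 2 (1.24%, beside 3.63%). Values below are normalized counts, that is tags scaled to a common library size by TMM.

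Kupffer cells take up aged red blood cells and recycle their iron. Heme leaves the phagolysosome through HRG1 (Slc48a1), heme oxygenase 1 (Hmox1) opens the ring, and the freed iron crosses internal membranes through NRAMP1 (Slc11a1) and DMT1 (Slc11a2). Iron is then held in ferritin, made of heavy (Fth1) and light (Ftl1) chains, or leaves the cell through ferroportin (Slc40a1), the only known mammalian iron exporter. Transferrin receptor 1 (Tfrc) takes up transferrin-bound iron, HFE (Hfe) binds that receptor, and hemojuvelin (Hfe2, also Hjv) is a co-receptor of the BMP pathway that drives hepcidin in hepatocytes.

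Of the 133 windows, 115 passed the filter of a mean normalized count over 16 and were tested, out of 60387 in all. The 18 that were not tested had means of at most 13.2 and lay at Ftl1 (7), Fth1 (6), Tfrc (2), Slc48a1 (2) and Slc40a1 (1). A window was called if edgeR's quasi-likelihood test gave it an adjusted p under 0.05 and if its log2 fold change exceeded 1 in either direction. In A/J over BALB/cJ 3 of 115 windows were called, 1 higher and 2 lower, beside 3.63% of all windows tested. In A/J over C57BL/6J 7 were called, 1 higher and 6 lower, beside 7.09% of all windows. In BALB/cJ over C57BL/6J 9 were called, 1 higher and 8 lower, beside 8.56%. The members' shares, 2.61%, 6.09% and 7.83%, lay close to these backgrounds. Without the third A/J or the third BALB/cJ library the first count was 1, and without the third C57BL/6J library the second was 3.

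Most of the calls came from 1 gene. Hfe2 held 6 of the 7 in A/J over C57BL/6J and 7 of the 9 in BALB/cJ over C57BL/6J. Slc11a2 held the 3 calls of A/J over BALB/cJ and 2 of BALB/cJ over C57BL/6J, and Tfrc held 1 of A/J over C57BL/6J. None was at a start site. At Slc40a1, Hmox1, Slc11a1, Fth1, Ftl1, Hfe and Slc48a1 no window was called in any comparison. The median log2 fold change over the 115 windows was −0.04, −0.08 and −0.02 in the 3 comparisons, and the groups did not overlap at 17, 25 and 25 windows, beside 19.09%, 21.99% and 24.88% of all windows. Across the 3 comparisons 14, 18 and 22 of the 115 windows had an unadjusted p under 0.05, beside 14.12%, 19.25% and 22.3% of all windows.

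**Figure D1:**
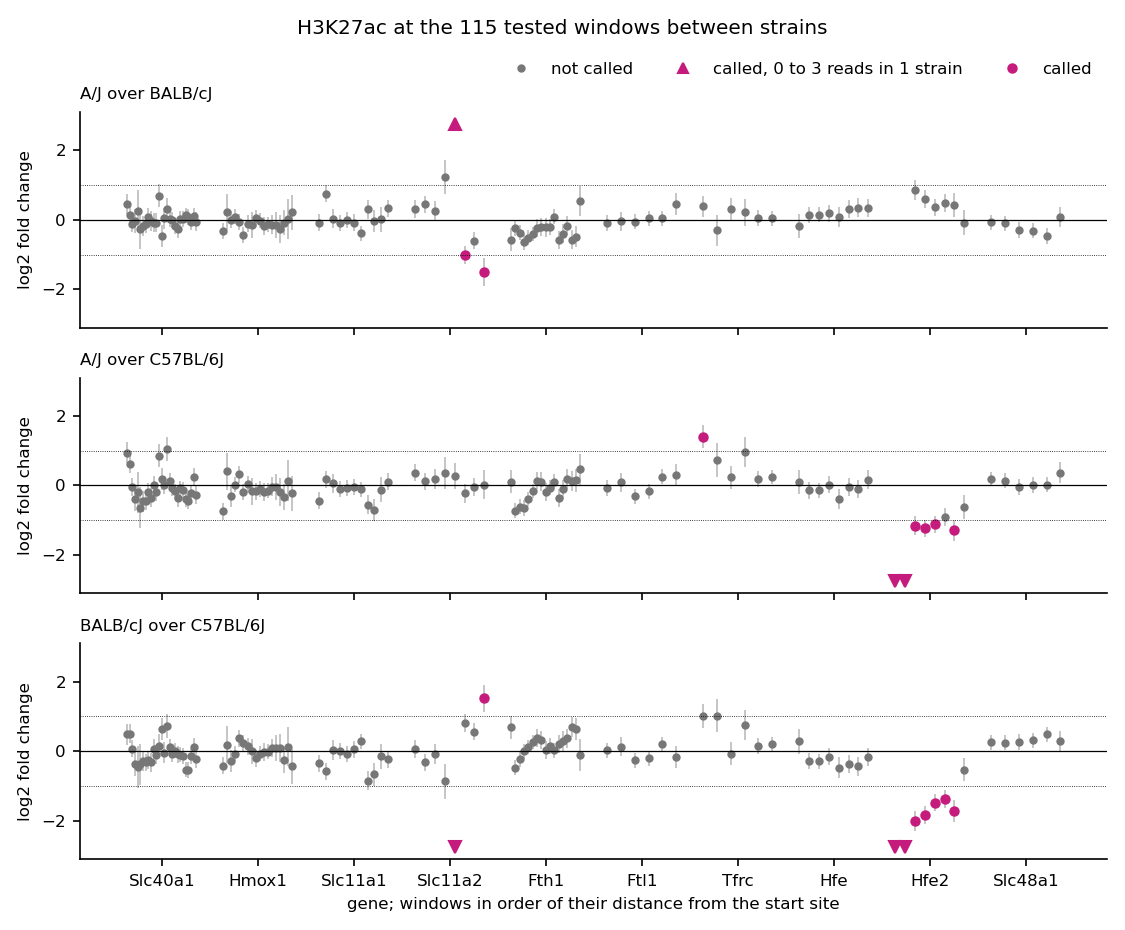
Log2 fold change (y axis, bars are standard errors) of each of the 115 tested windows, by gene and in order of distance from the start site, in A/J over BALB/cJ, A/J over C57BL/6J and BALB/cJ over C57BL/6J. Dotted lines mark the threshold of 1; triangles at the edge mark called windows with 0 to 3 reads in 1 strain, whose fitted size is not drawn, and the 2 Hfe2 windows with at most 1 read in A/J and BALB/cJ are left out of that comparison. Called windows lie at Slc11a2, Tfrc and Hfe2 only.

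Summed over windows that do not overlap each other, 1 of the 10 genes differed between strains. Hfe2 held 154, 189 and 211 normalized counts in A/J and 416, 472 and 581 in C57BL/6J, with a log2 fold change of −1.42 ± 0.18 (SE, adjusted p = 1.17e-05, edgeR), beside 4.6% of all genes called. BALB/cJ held 134, 130.1 and 119, below each C57BL/6J library, with −1.95 ± 0.19 against C57BL/6J (adjusted p = 2.02e-07), beside 5.29% of genes called. No gene sum was called in A/J over BALB/cJ, where 2.5% of genes were. The other 9 sums were not called in any comparison, with log2 fold changes from −0.35 to 0.37.

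At their start sites, the 9 genes other than Hfe2 lay above the median of all genes. Among 11884 genes with a window at their start site, the members' strongest such window exceeded 97.8% of genes at Slc11a1, 96.6% at Hfe, 84.2% at Fth1, 83.6% at Ftl1, 80.4% at Slc11a2, 72.6% at Hmox1, 71.9% at Tfrc, 65.9% at Slc48a1 and 59.3% at Slc40a1. These ranks depend on which windows count as at the start site. Slc11a1 was ranked by its window at 334 bp. Slc48a1 was ranked by that at −57 bp, while its stronger window at 501 bp (mean 313) was not counted. Mean levels were 533 normalized counts at Slc11a1 and 489 at Hfe, both above the 301 at Fth1, 295 at Ftl1 and 269 at Slc11a2. Slc11a1 stood above Fth1 in every library, but each gene overlapped the next in this order over the 9 libraries.

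**Figure D2:**
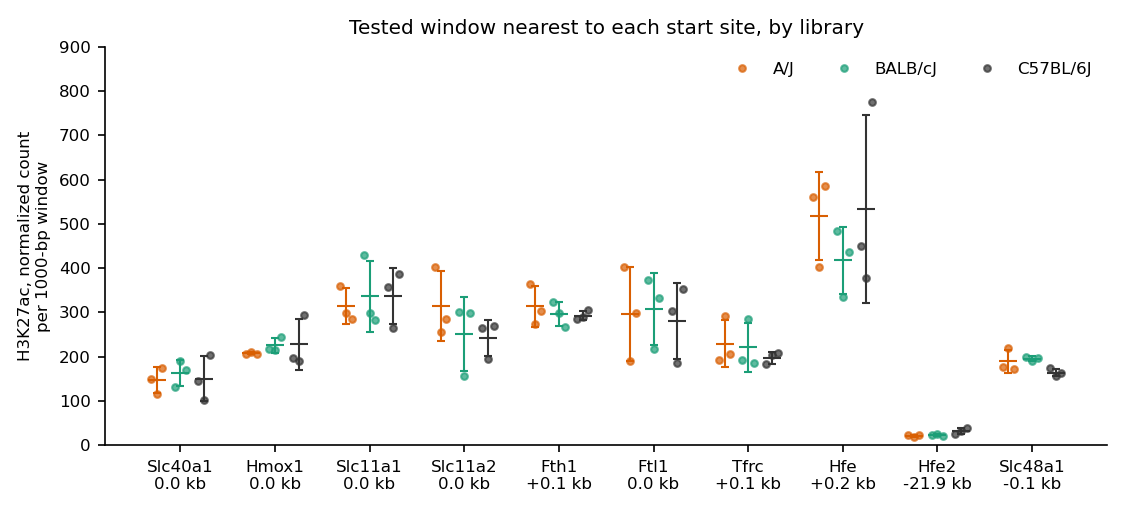
H3K27ac (normalized counts per 1000-bp window, y axis) at the tested window nearest to the start site of each gene (x axis, with the distance of its centre), with the strains side by side. Points are libraries, horizontal bars are means and error bars are SDs over 3 libraries; at Hfe2 the nearest window is 21.9 kb away and C57BL/6J lies above the others, at Hmox1 A/J lies below BALB/cJ and at Slc48a1 BALB/cJ above C57BL/6J, while all other pairs of strains overlap.

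Slc40a1, which encodes ferroportin, had the most windows, 28 of which 27 were tested, from 22.4 kb before to 65.0 kb after the start site, and none was called. At the start site (GRCm38 chr1:45925078-45926078) A/J held 150.2, 116 and 175 normalized counts, BALB/cJ 132, 190.0 and 169, and C57BL/6J 145, 102 and 203. The 3 strains overlapped fully. The highest of its windows lay 44.0 kb downstream, in intergenic sequence, with 232, 160.2 and 253 in A/J, 282, 165 and 205 in BALB/cJ and 233, 191 and 263 in C57BL/6J, again overlapping. In each strain's mean this downstream window exceeded the promoter.

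Slc40a1 came closest to a call 1.0 kb upstream of the start site used here, in a window that holds the RefSeq start (chr1:45926532). A/J held 55.2, 89.0 and 69.2 there, BALB/cJ 38.0, 64.1 and 51.9, and C57BL/6J 41.3, 32.6 and 33.4. Every A/J library lay above every C57BL/6J library, with a log2 fold change of 0.94 ± 0.30 and an adjusted p of 0.0493 (edgeR), under the fold needed. The overlapping window 0.6 kb upstream holds the same RefSeq start and was stronger, averaging 127 (A/J), 118 (BALB/cJ) and 80.1 (C57BL/6J). Its A/J over C57BL/6J value was 0.63 ± 0.27 (adjusted p = 0.175, edgeR). At 31.2 kb, A/J held 37.5, 47.5 and 48.5 and C57BL/6J 24.0, 21.0 and 19.5, a difference of 1.05 ± 0.34 that had an adjusted p of 0.0614 and was called with the replicate number as a block (1.06 ± 0.31, adjusted p = 0.0108). The window 1.0 kb upstream was called without the first A/J library (1.10, adjusted p = 0.0454, edgeR). At the window 1.0 kb upstream and at that of 31.2 kb every A/J library lay above every C57BL/6J library.

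Slc48a1, the heme transporter gene, had 6 tested windows, all within 5.8 kb of the start site and none called. At the start site A/J held 177, 219.5 and 171, BALB/cJ 200.1, 190.0 and 196, and C57BL/6J 173, 156 and 162. BALB/cJ was above C57BL/6J in all libraries and A/J overlapped both. Its strongest window, 0.5 kb into intron 1, held 302, 320.4 and 325 in A/J, 306, 353 and 356 in BALB/cJ and 305, 242 and 307 in C57BL/6J. Its lowest p was at 3.4 kb in BALB/cJ over C57BL/6J, 0.48 ± 0.22 on the log2 scale (adjusted p = 0.194, edgeR).

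Hmox1 encodes the heme oxygenase that is induced by heme. Its start-site window (chr8:75093132-75094132) was also its strongest, with 206, 211 and 206 normalized counts in A/J, 217, 215 and 245 in BALB/cJ and 197, 191 and 294 in C57BL/6J. A/J lay just below BALB/cJ, and C57BL/6J spanned the range of both. Upstream of it, 6 windows between 3.9 and 11.6 kb had strain means from 136 to 220.3, close to the promoter itself, while a window at 5.8 kb was near 30. None of the 18 Hmox1 windows was called. The lowest p lay 26.1 kb upstream, in an exon of the neighbour Tom1, where A/J held 124, 136 and 117, BALB/cJ 118, 197 and 159, and C57BL/6J 225, 151 and 242. There A/J lay below C57BL/6J without overlap, by −0.74 ± 0.24 on the log2 scale (adjusted p = 0.0535, edgeR).

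The upstream Hmox1 windows are known from mouse macrophages as enhancers carrying stress response elements, bound by NRF2 or BACH1 with small MAF proteins. Their mm10 sequence, plus strand, is shown because the elements can be read directly; capitals mark matches to TGACNNNGC (the core of such an element) or TGAGTCA (an AP-1 site), which overlap, on either strand.
Hmox1 upstream, far: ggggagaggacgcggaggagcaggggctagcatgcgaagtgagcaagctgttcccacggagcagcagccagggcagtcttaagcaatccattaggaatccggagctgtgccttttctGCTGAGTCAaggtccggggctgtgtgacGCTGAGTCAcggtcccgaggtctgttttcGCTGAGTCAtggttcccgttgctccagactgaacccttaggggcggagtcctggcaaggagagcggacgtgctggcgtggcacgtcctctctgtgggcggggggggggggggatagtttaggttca
Hmox1 upstream, near: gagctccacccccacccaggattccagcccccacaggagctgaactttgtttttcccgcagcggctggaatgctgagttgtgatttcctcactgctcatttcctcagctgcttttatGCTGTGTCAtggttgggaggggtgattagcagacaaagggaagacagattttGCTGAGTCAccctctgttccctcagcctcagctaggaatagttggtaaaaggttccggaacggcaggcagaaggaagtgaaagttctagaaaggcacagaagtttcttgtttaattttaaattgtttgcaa
The far stretch (chr8:75083832-75084131) is the middle of the window 9.6 kb upstream, which holds 3 TGACNNNGC and 3 TGAGTCA matches; 1.105% and 0.447% of all 96238 windows hold 3 or more of each. The near stretch (chr8:75089581-75089880) is the middle of the window 3.9 kb upstream, with 3 TGACNNNGC matches and 1 TGAGTCA in the whole window. The window 9.6 kb upstream averaged 169 (A/J), 176 (BALB/cJ) and 136 (C57BL/6J) normalized counts, and the one 3.9 kb upstream 189 (A/J), 192 (BALB/cJ) and 199 (C57BL/6J). Over all members, 44 of 133 windows (33.08%) hold TGACNNNGC and 30 (22.56%) hold TGAGTCA, against 33.69% and 22.61% of all windows. These matches are letters and not measured binding.

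Slc11a1 encodes NRAMP1, a phagosomal exporter of divalent metals, and C57BL/6J and BALB/cJ mice are known to carry a loss-of-function allele that A/J mice lack. Its strongest window, 0.3 kb after the start site (chr1:74375037-74376037), held 526, 534 and 516 normalized counts in A/J, 572, 472 and 528 in BALB/cJ and 512, 447 and 688 in C57BL/6J. No other window of the 10 genes was as high, and the strains overlapped. The window at the start site itself held 359, 299.6 and 284 in A/J, 429, 298 and 283 in BALB/cJ and 357, 265 and 386 in C57BL/6J, also overlapping. None of the 11 windows was called. In intron 4, 4.0 kb in, A/J held 55.2, 101 and 86.7, BALB/cJ 52.4, 91.6 and 55.5, and C57BL/6J 108, 121 and 116. Both A/J and BALB/cJ lay below every C57BL/6J library, and BALB/cJ over C57BL/6J was −0.85 ± 0.27 on the log2 scale (adjusted p = 0.0465, edgeR), under the fold needed; without the second BALB/cJ library it was called (−1.09, adjusted p = 0.0131). Of that window 60.3% is repeat-masked sequence.

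Slc11a2, which encodes the divalent metal transporter DMT1, had calls within the gene body and none at its promoter. RefSeq starts the gene at chr15:100424209, 1154 bp from the start site used here. At the start site (chr15:100422590-100423590) A/J held 403, 255 and 284 normalized counts, BALB/cJ 299.7, 156 and 299, and C57BL/6J 264, 196 and 269. The next window, 0.9 kb in, was its strongest, with 381, 273 and 395 in A/J, 293, 156 and 318 in BALB/cJ and 338, 261 and 370.3 in C57BL/6J. The strains overlapped at both windows, and BALB/cJ's second library was the lowest of the 9.

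In intron 2, 11.7 kb from the start site (chr15:100410842-100411842), BALB/cJ had almost no signal. A/J held 33.9, 35.6 and 47.9 normalized counts, BALB/cJ 2.53, 0 and 0, and C57BL/6J 32.0, 25.6 and 37.8. BALB/cJ thus lay below every library of the other strains. Over the 3 libraries A/J had 132.5 tags, BALB/cJ 3 and C57BL/6J 95. The ratio of A/J to BALB/cJ was 40.8 (95% counting interval 13.6 to 200.1) and that of C57BL/6J to BALB/cJ was 34.2 (11.4 to 169). Both comparisons were called (A/J over BALB/cJ, adjusted p = 3.22e-06; BALB/cJ over C57BL/6J, adjusted p = 3.97e-06; edgeR).

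The ChIP input at that window did not follow the strains: 10.0, 10.96 and 6.7 tags per 1000000 input tags in A/J, 10.1, 14.0 and 10.9 in BALB/cJ and 15.4 in the C57BL/6J input. In CB6F1/J, the region inside the window (from chr15:100411248) held 0, 0 and 0.5 allelic reads on the BALB/cJ allele and 8.5, 13 and 10.5 on the C57BL/6J allele in the 3 libraries. The BALB/cJ allele was lower in every library, as the BALB/cJ strain was; the region's mean was under the filter, and without the filter its adjusted p was 0.0298 (edgeR). The reference sequence of its middle is shown since the strain difference within Slc11a2 was greatest there; capitals mark a TGAGTCA match, on the minus strand.
Slc11a2 intron 2: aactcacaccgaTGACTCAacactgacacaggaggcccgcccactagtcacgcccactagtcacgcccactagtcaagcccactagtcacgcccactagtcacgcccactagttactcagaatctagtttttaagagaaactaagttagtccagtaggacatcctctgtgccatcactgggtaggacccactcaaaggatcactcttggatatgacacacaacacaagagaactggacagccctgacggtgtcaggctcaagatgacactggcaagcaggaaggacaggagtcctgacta
This is C57BL/6J sequence (mm10, chr15:100411192-100411491, plus strand), and the other strains' bases were not used here. The AP-1 match is followed by a tandem array in which CCCACTAGT occurs 6 times. That unit, picked after seeing the sequence, is in 0.46% of all windows, and 2 windows of 96238 hold it 3 or more times.

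Further into the gene the order turned round. At 16.8 kb (chr15:100405784-100406784, over exon 6) A/J held 45.6, 83.1 and 59.5 normalized counts, BALB/cJ 97.1, 146.5 and 124, and C57BL/6J 65.3, 79.2 and 66.8. BALB/cJ was above every library of both other strains. A/J over BALB/cJ was called (−1.02 ± 0.26, adjusted p = 0.0238, edgeR), and BALB/cJ over C57BL/6J was 0.80 ± 0.26 and not called. The call was lost without the first or the third A/J library or the second or the third BALB/cJ library (adjusted p up to 0.164).

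At 19.6 kb, in intron 9, A/J held 31.7, 14.8 and 22.0, BALB/cJ 81.1, 22.9 and 92.7, and C57BL/6J 32.0, 14.0 and 23.9. The first and the third BALB/cJ libraries were high and the second lay within the other strains. Both comparisons were called, A/J over BALB/cJ at −1.5 ± 0.39 (adjusted p = 0.0232) and BALB/cJ over C57BL/6J at 1.52 ± 0.39 (adjusted p = 0.0116). The A/J call was lost without the second or the third A/J or the first or the third BALB/cJ library (adjusted p up to 0.243), and the C57BL/6J call without the first or the third BALB/cJ or the third C57BL/6J library (up to 0.121). The calls at 11.7 kb were kept whichever library was left out.

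At 3.3 kb, a weak window, A/J held 26.5, 11.9 and 24.6 and BALB/cJ 17.7, 4.58 and 4.38, a difference of 1.24 ± 0.49 (adjusted p = 0.202) that was called with the replicate block (1.31 ± 0.43, adjusted p = 0.0362).

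**Figure D3:**
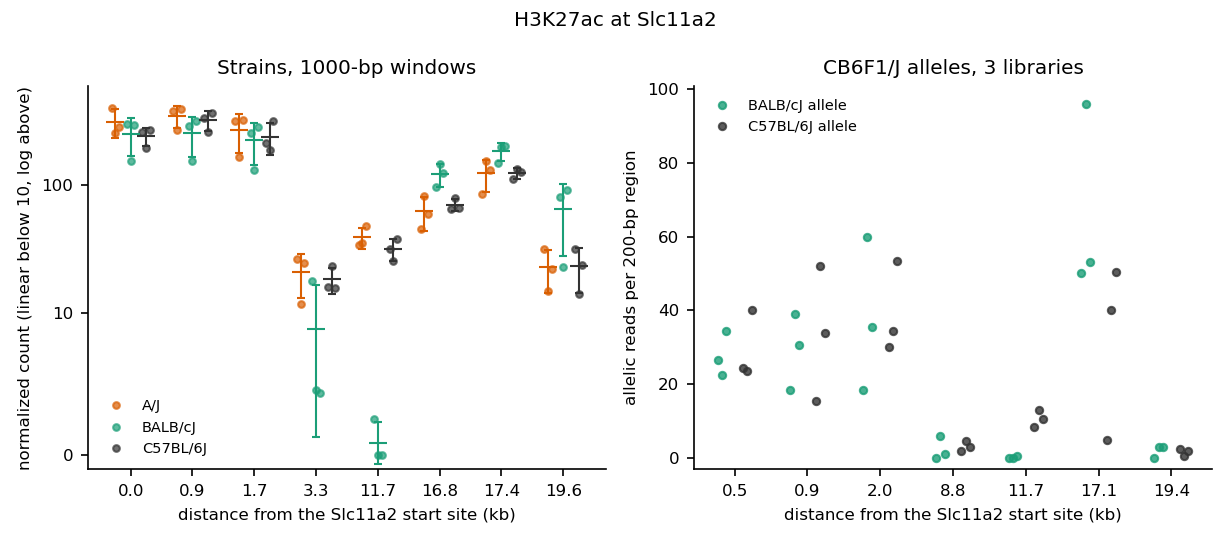
Left, H3K27ac at the 8 Slc11a2 windows (normalized counts, linear below 10 and logarithmic above) by distance from the start site, 1 colour per strain (points are libraries, bars means with SD, n = 3). Right, allelic reads per 200-bp region in CB6F1/J for the BALB/cJ and the C57BL/6J allele, 3 libraries each. At 11.7 kb the BALB/cJ strain and the BALB/cJ allele are both at or near 0.

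A 200-bp region 17.1 kb into Slc11a2, within the windows at 16.8 and 17.4 kb, had the most uneven allelic counts among the tested members. The BALB/cJ allele held 50, 96 and 53 reads and the C57BL/6J allele 5, 40 and 50.5, so that the BALB/cJ share was 90.9%, 70.6% and 51.2% in the 3 libraries. The share was above 50% in all of them, with a wide spread, and the log2 fold change of 1.15 ± 0.44 was not called (unadjusted p = 0.0172, adjusted p = 0.163, edgeR); DESeq2 called it (1.24, adjusted p = 0.0227). The BALB/cJ strain was also above C57BL/6J here, and the difference between strain and allele contrasts was −0.38 ± 0.49 at the window at 16.8 kb (adjusted p = 0.839, edgeR). Its mm10 sequence (chr15:100405897-100406096, plus strand) is shown with its 1 TGACNNNGC match (minus strand) in capitals.
Slc11a2 F1 region: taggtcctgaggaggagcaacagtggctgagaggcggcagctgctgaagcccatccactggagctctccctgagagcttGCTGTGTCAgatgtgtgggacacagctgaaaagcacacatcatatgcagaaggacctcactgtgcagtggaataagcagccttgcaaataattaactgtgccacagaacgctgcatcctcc

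Fth1 and Ftl1 encode the 2 ferritin chains. Both have near-identical processed pseudogenes, so that reads inside their exons may be lost or shared, while flanking windows are less exposed to that. The strongest Fth1 window (chr19:9982274-9983274) lies 0.1 kb from the annotated start site of the transcript NM_010239. RefSeq begins the gene farther upstream, at chr19:9980600. The window held 364, 273 and 304 normalized counts in A/J, 323, 298 and 267 in BALB/cJ and 284, 289 and 304 in C57BL/6J. The strains overlapped. A group of 5 windows lay 25.5 to 28.1 kb upstream, with means of 175 to 254. In the farthest of them A/J held 163, 166 and 205, BALB/cJ 203, 211 and 224, and C57BL/6J 268, 235 and 373. There A/J lay below C57BL/6J in every library, by −0.72 ± 0.22 on the log2 scale (adjusted p = 0.0404, edgeR), which is under the fold needed.

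At Ftl1 the start-site window held 403, 189.8 and 298 in A/J, 374, 217 and 333 in BALB/cJ and 302, 186 and 353 in C57BL/6J. The second library was the lowest in every strain. A stronger window 1.1 kb upstream, beside the end of a neighbouring gene, held 382, 395 and 486 in A/J, 420.5, 389 and 543 in BALB/cJ and 386, 442 and 504 in C57BL/6J. The 6 tested windows of Ftl1 had log2 fold changes from −0.31 to 0.46, and the lowest adjusted p was 0.483 (edgeR).

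Tfrc encodes transferrin receptor 1. Its promoter (chr16:32608446-32609446) held 193, 291 and 205 normalized counts in A/J, 193, 284 and 186 in BALB/cJ and 183, 203 and 208 in C57BL/6J. The second A/J and BALB/cJ libraries were high and the strains overlapped. A window 13.5 kb upstream (chr16:32594863-32595863) held 53.7, 53.4 and 67.3 in A/J, 46.4, 54.9 and 36.5 in BALB/cJ and 24.0, 32.6 and 15.7 in C57BL/6J. Every A/J and BALB/cJ library lay above every C57BL/6J library. A/J over C57BL/6J was called at 1.40 ± 0.33 (adjusted p = 0.0058, edgeR), and lost without the third A/J or the third C57BL/6J library (adjusted p up to 0.111). BALB/cJ over C57BL/6J was 1.01 ± 0.34 (adjusted p = 0.0549) and was called with the replicate number as a block (1.02 ± 0.31, adjusted p = 0.0105), and without the second A/J (1.01, adjusted p = 0.0487) or the second C57BL/6J library (1.22, adjusted p = 0.0253).

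Nearer to the Tfrc promoter, 2 weak windows were called only with the replicate block. At 10.6 kb upstream BALB/cJ held 45.6, 50.4 and 22.6 and C57BL/6J 28.0, 32.6 and 5.04, with 1.06 ± 0.36 under the block (adjusted p = 0.0254) and 1.02 ± 0.48 without it (adjusted p = 0.214). At 1.2 kb upstream A/J held 25.8, 29.7 and 39.5 and C57BL/6J 20.0, 25.6 and 9.45, with 1.05 ± 0.37 under the block (adjusted p = 0.0344) and 0.96 ± 0.43 without it (adjusted p = 0.209). The third C57BL/6J library was the lowest at each of these Tfrc windows. A stretch of the window 13.5 kb upstream (chr16:32595056-32595355, plus strand), on the left of its centre, is shown because the difference was called in that window and the stretch begins with its TGACNNNGC match, in capitals.
Tfrc upstream: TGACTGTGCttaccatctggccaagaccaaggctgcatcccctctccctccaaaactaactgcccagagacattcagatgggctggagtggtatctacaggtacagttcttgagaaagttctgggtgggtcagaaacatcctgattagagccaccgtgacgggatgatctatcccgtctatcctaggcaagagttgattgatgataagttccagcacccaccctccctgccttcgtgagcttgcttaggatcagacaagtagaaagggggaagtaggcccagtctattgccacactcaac

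Hfe encodes an MHC class I-like protein whose loss causes iron overload. Its start-site window (chr13:23710142-23711142) held 561, 403 and 587 normalized counts in A/J, 483, 334 and 436 in BALB/cJ and 449, 377 and 775 in C57BL/6J. The 3 strains overlapped. None of its 8 windows was called, and the lowest adjusted p was 0.37, at 0.9 kb.

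Hfe2, the hemojuvelin gene, carried the greatest strain differences, at windows far from its promoter. None of its 8 windows lay within 20 kb of the start site. The nearest, 21.9 kb upstream, held 22.1, 17.8 and 22.0 normalized counts in A/J, 22.0, 25.2 and 21.2 in BALB/cJ and 25.3, 32.6 and 37.8 in C57BL/6J, and was not called, with C57BL/6J above every other library. The other 7 lie in a stretch of small RNA genes: RefSeq places the small nuclear RNA gene Gm22614 in the window at −36.0 kb and 4 tRNA genes (n-TKctt16, n-THgtg8, n-TGtcc7, n-TEctc13) in the windows from −25.5 to −23.6 kb. These belong to multicopy families, and reads may be shared with copies elsewhere.

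At −36.0 kb (chr3:96488719-96489719) A/J held 0, 0 and 0 normalized counts and BALB/cJ 0.84, 0 and 0, against 109, 112 and 158 in C57BL/6J. At −35.5 kb, which overlaps it, A/J held 0, 0 and 0 and BALB/cJ 0.84, 0 and 0, against 147, 144 and 215 in C57BL/6J. The signal was thus at 0 or 1 tag in A/J and BALB/cJ and high in all 3 C57BL/6J libraries. With the 0 of A/J set to a floor of 3 counts for the 3 libraries together, A/J was at least 149-fold lower than C57BL/6J at −36.0 kb and at least 201-fold lower at −35.5 kb. The ratio of C57BL/6J to BALB/cJ, with 1 tag in BALB/cJ, was 411 (95% counting interval 73.4 to 16282) and 556 (99.3 to 22001).

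The ChIP input was also absent from these windows in A/J and BALB/cJ. It was 0 tags per 1000000 in each of their 6 inputs at −36.0 kb and in 5 of 6 at −35.5 kb (0.261 in 1 A/J input), and 3.43 and 2.57 in the C57BL/6J input, while at −24.7 kb it was 9.74 to 16.9 in A/J and BALB/cJ and 18.0 in C57BL/6J. So the input had the order of the H3K27ac signal at −36.0 and −35.5 kb. The C57BL/6J values come from its only input, with 583518 tags in all windows, and so rest on very few tags. Of the window at −35.5 kb 97.1% is repeat-masked. The neighbouring windows assigned to BC107364 had the same order, the farther one averaging 2.3 (A/J), 6.1 (BALB/cJ) and 197 (C57BL/6J) and the nearer one 1.1, 4.1 and 183. In CB6F1/J the region at −35.9 kb had no read over a variant, and its perfectly mapped reads were nearly equal for the BALB/cJ genome (153.5, 292 and 171 in the 3 libraries) and the C57BL/6J genome (153.5, 292 and 171.5). The region at −35.5 kb, also with no read over a variant, held 20, 26.5 and 28 for the BALB/cJ genome and 19, 25.5 and 27 for the C57BL/6J genome. Reads of CB6F1/J thus mapped to the BALB/cJ genome at both regions, and with no read over a variant the allele they came from cannot be told. Whether the A/J genome could take reads here was not tested.

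The start of the window at −36.0 kb (chr3:96488729-96489028, plus strand) is shown because the small nuclear RNA gene lies there; capitals mark Gm22614.
Hfe2 snRNA window: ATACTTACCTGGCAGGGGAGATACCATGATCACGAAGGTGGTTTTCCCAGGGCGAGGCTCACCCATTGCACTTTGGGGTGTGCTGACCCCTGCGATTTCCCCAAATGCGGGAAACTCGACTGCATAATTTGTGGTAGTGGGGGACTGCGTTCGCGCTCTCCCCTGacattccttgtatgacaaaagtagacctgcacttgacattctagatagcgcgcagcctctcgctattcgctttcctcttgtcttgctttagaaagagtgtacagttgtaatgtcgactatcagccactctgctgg

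Nearer to Hfe2, at the tRNA genes, all 3 strains had signal and C57BL/6J was the highest. At −25.0 kb (chr3:96499677-96500677) A/J held 86.1, 77.1 and 109 normalized counts, BALB/cJ 71.8, 68.7 and 45.3, and C57BL/6J 195, 191 and 260.1. C57BL/6J lay above every other library, with A/J over C57BL/6J at −1.23 ± 0.24 (adjusted p = 0.00109, edgeR) and BALB/cJ over C57BL/6J at −1.83 ± 0.25 (adjusted p = 1.09e-05). At −24.7 kb, the strongest Hfe2 window, A/J held 78.8, 89.0 and 142, BALB/cJ 92.0, 82.4 and 70.8, and C57BL/6J 219, 200.2 and 260.1, in the same order of strains.

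The other 3 windows of that stretch, at −25.5, −24.2 and −23.6 kb, had the same order of strains in their means. In BALB/cJ over C57BL/6J the 5 windows had log2 fold changes from −2.01 to −1.38, all called, and kept the call whichever library was left out. In A/J over C57BL/6J they ranged from −1.29 to −0.90; 4 were called, and the window at −24.2 kb (−0.90, adjusted p = 0.0237) was under the fold needed but was called without the second (−1.02) or the third (−1.07) A/J library. Without the third C57BL/6J library, 3 of these 4 calls, at −25.5, −24.7 and −23.6 kb, were lost. Without the first A/J library the calls at −24.7 and −23.6 kb were lost, and without the third A/J library that at −23.6 kb (adjusted p up to 0.0964 over these). Each of the 5 windows overlaps the next, so they are not separate sites. No Hfe2 window was called in A/J over BALB/cJ, except that at −25.5 kb without the second library of every strain (1.04 ± 0.30, adjusted p = 0.0442, edgeR).

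In CB6F1/J the region at −24.9 kb held 3.5, 8 and 5 reads on the BALB/cJ allele and 7.5, 36.5 and 22.5 on the C57BL/6J allele, BALB/cJ shares of 31.8%, 18.0% and 18.2%. The C57BL/6J allele was the higher in each library, as the strain was. The region was below the filter, and without the filter its log2 fold change was −1.83 ± 0.70 (adjusted p = 0.304, edgeR). Over the 3 libraries the region at −23.6 kb held 24.5 reads on the BALB/cJ allele and 28.5 on the C57BL/6J allele. At −23.0 kb these counts were 29.5 and 27.5. The stretch around the region at −24.9 kb (chr3:96500138-96500437, plus strand) shows the tRNA gene n-THgtg8 in capitals.
Hfe2 tRNA window: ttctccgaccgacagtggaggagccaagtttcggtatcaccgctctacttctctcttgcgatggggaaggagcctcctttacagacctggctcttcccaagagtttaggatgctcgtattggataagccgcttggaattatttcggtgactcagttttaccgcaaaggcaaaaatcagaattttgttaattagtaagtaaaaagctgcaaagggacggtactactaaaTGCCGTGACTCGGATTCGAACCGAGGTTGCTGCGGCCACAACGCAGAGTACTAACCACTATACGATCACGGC

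**Figure D4:**
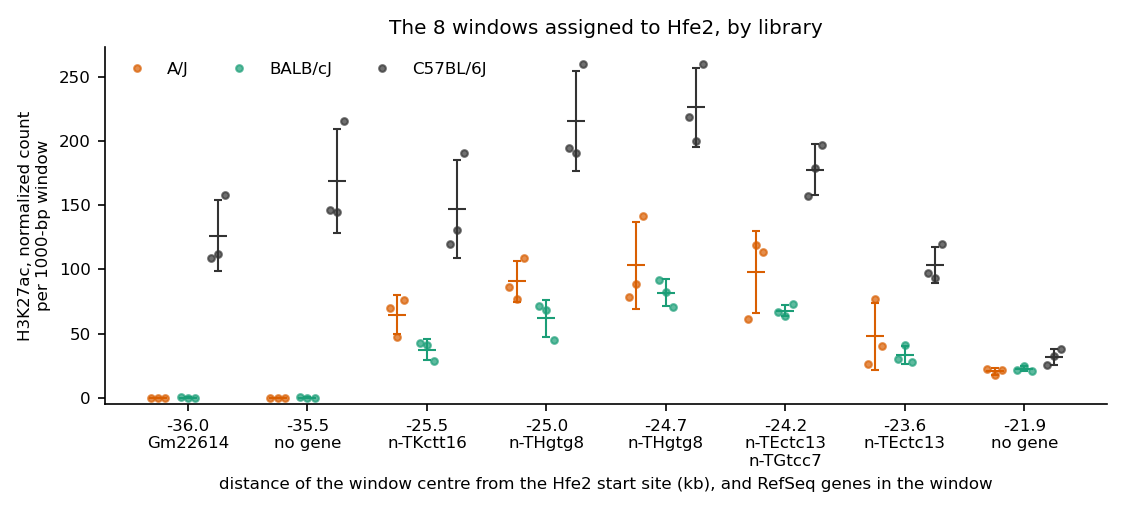
H3K27ac (normalized counts per 1000-bp window, y axis) at the 8 windows assigned to Hfe2, by distance from its start site and with the RefSeq gene in each window (x axis), 1 colour per strain. Points are libraries and bars are means with SD (n = 3); at −36.0 and −35.5 kb A/J and BALB/cJ are at or near 0 while C57BL/6J exceeds 100, and from −25.5 to −23.6 kb C57BL/6J is above both other strains.

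The alleles of CB6F1/J share 1 nucleus, so the allelic counts compare the 2 parental sequences in the same cells. Of 232 member regions of 200 bp, 52 (22.41%) held any allelic read, close to the 19.1% of all 217456 regions, and 15 passed the filter, out of 4467 in all. None of the 15 was called by edgeR, beside 6.54% of all regions tested (292, and 0 with the library as a block). Of the 15, 1 at Slc11a2 had an unadjusted p under 0.05, beside 15.51% of all regions tested. DESeq2 called that 1, beside 8.46% of all regions. Slc40a1, Slc11a1, Tfrc and Slc48a1 had no allelic read, so the Tfrc difference between strains could not be set against alleles.

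Summed over regions, the BALB/cJ share of allelic reads was 55.0%, 55.1% and 47.5% at Hmox1 and 56.3%, 57.4% and 45.0% at Slc11a2 in the 3 libraries. It was 47.3%, 49.2% and 47.0% at Fth1 and 49.1%, 49.5% and 56.2% at Ftl1. At Hfe it was 29.1%, 54.2% and 54.0%, the first library being low, and at Hfe2 50.8%, 32.3% and 39.2%. Over all members the share was 49.2%, 51.6% and 48.0%, against 49.0%, 48.8% and 48.6% over the whole table. At 5 member regions, none of them tested, the counts of both alleles were identical in all libraries, as at 1605 of 41527 regions with allelic reads.

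The difference between the strain contrast and the allele contrast, BALB/cJ over C57BL/6J in each, could be tested at 16 member windows. The 9 windows called in BALB/cJ over C57BL/6J were not among them, so the test does not cover those differences. The largest strain log2 fold change among the 16 was 0.80, at Slc11a2 (16.8 kb). Some of the 16 share allelic reads, as at 16.8 and 17.4 kb of Slc11a2. None of the 16 passed an adjusted p of 0.05 in edgeR, beside 2.39% of all windows. None had an unadjusted p under 0.05, beside 644 of all 5232 windows tested. The lowest was at Fth1, 1.7 kb, where the strain contrast minus the allele contrast was 0.80 ± 0.55 (adjusted p = 0.63, edgeR). With 3 libraries and allelic counts this low, standard errors ran from 0.31 to 0.55 on the log2 scale. Differences well above these standard errors could also be missed, as the 0.80 at Fth1 had an unadjusted p of 0.156 (edgeR).

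**Figure D5:**
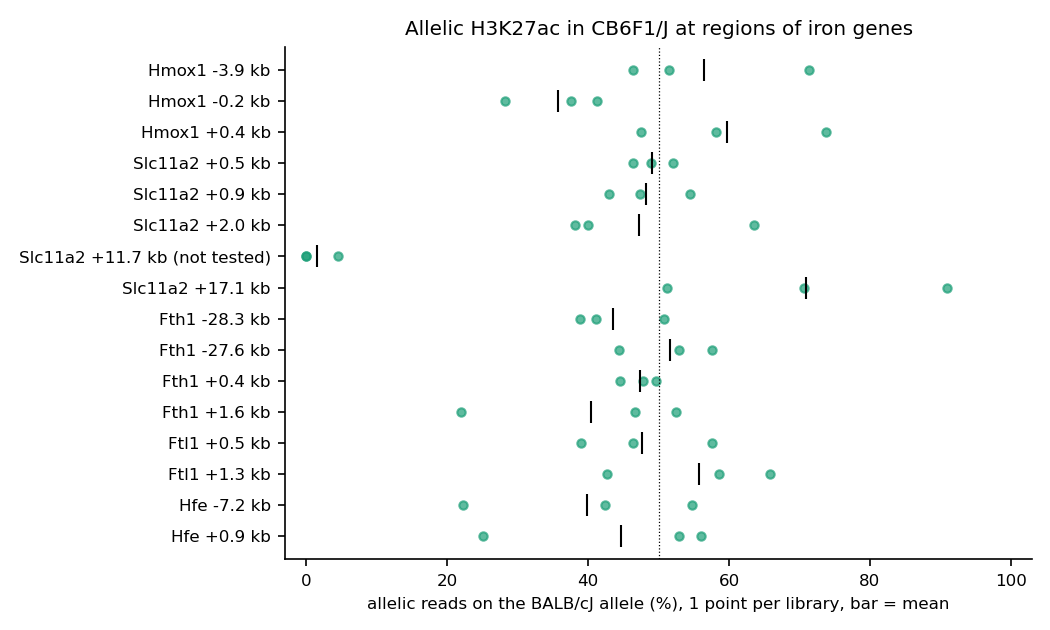
Share of allelic H3K27ac reads on the BALB/cJ allele (x axis, %) in CB6F1/J at the 15 tested member regions and the untested Slc11a2 region at 11.7 kb. Points are the 3 libraries (2 coincide at 0% in the Slc11a2 region at 11.7 kb), the black bar is their mean and the dotted line marks 50%. Among the regions drawn, the 2 whose means are farthest from 50% are both at Slc11a2, on opposite sides. Other untested regions are not drawn and some are also uneven. Hmox1 at 4.0 kb had BALB/cJ shares of 100%, 100% and 88.9% (17 reads against 0.5), and Hfe2 at −24.9 kb a mean of 22.7%.

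Windows elsewhere in the genome with a pattern most like the 3 leading member windows were sought by the correlation of log levels over the 9 strain libraries, as a description of shared strain order. The Hfe2 window at −35.5 kb was most like windows of Gm15133 (r = 0.998) and G530011O06Rik (r = 0.997). The Slc11a2 window at 11.7 kb was most like windows of Nlrp1b (r = 0.993) and 2900097C17Rik (r = 0.993), and the Tfrc window at −13.5 kb like windows of Myl12b (r = 0.992) and Cdkn3 (r = 0.982). Libraries of a strain share that strain's genome.

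Other genes of iron and heme metabolism, from lists made by function, are set beside the 3.63%, 7.09% and 8.56% of all windows called. Among 76 tested windows of uptake and transport genes, 0 were called in A/J over BALB/cJ, 2 in A/J over C57BL/6J and 3 in BALB/cJ over C57BL/6J. The 58 windows of storage, sensing and export genes had 2, 1 and 4, the 45 of heme synthesis and breakdown genes 3, 4 and 3, and the 85 of heme-responsive regulators 1 in each. The shares of heme synthesis and breakdown genes were 6.67% (all 3 windows at Hmox2), 8.89% and 6.67% in the 3 comparisons. Those of the other 3 lists ran from 0% to 6.9%. These counts are small, and no list was tested against the background.

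The mitochondrial iron importer gene Slc25a37 had a window 33.6 kb downstream at 38.3, 50.4 and 29.8 in A/J and 30.4, 52.6 and 31.4 in BALB/cJ, against 5.3, 9.3 and 12 in C57BL/6J. The log2 fold change against C57BL/6J was 1.99 ± 0.41 for A/J (adjusted p = 0.0018, edgeR) and for BALB/cJ 1.94 ± 0.41 (adjusted p = 0.0021). At the start site of Alad, the second enzyme of heme synthesis, A/J held 173, 157 and 171 and BALB/cJ 190.0, 261 and 188, against 74.6, 37.3 and 67.4 in C57BL/6J. A/J was higher by 1.44 ± 0.25 (adjusted p = 0.000271) and BALB/cJ by 1.77 ± 0.25 (adjusted p = 1.73e-05), with no overlap.

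Hmox2, the constitutive heme oxygenase, held 109.7, 47.5 and 77.0 in A/J at a window 0.2 kb from its start site, against 312, 237.5 and 436 in C57BL/6J, a log2 fold change of −2.01 ± 0.27 (adjusted p = 8.1e-06, edgeR), while no window of the inducible Hmox1 was called. Fbxl5, whose product degrades the iron regulatory protein IRP2, had a window 44.4 kb downstream that was high in BALB/cJ alone. A/J held 9.6, 5.9 and 8.4 and BALB/cJ 71.8, 112 and 92.0 (−3.39 ± 0.37, adjusted p = 7.49e-07), and C57BL/6J held 1.3, 2.3 and 4.4. Of Bach1, the heme-sensing repressor of Hmox1, the window 43.8 kb upstream held 54.5, 29.7 and 32.3 in A/J, 121, 82.4 and 73.8 in BALB/cJ and 40.0, 32.6 and 27.7 in C57BL/6J. BALB/cJ was above every other library there, by 1.49 ± 0.31 over C57BL/6J (adjusted p = 0.00148), and the log2 fold change of A/J against BALB/cJ was −1.20 ± 0.30 (adjusted p = 0.0167).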

How the data were processed

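The H3K27ac ChIP–seq data comprised 9 Kupffer cell libraries of the 3 inbred strains, their 7 ChIP inputs and 3 CB6F1/J libraries; CB6F1/J inputs were not used here. The authors mapped reads with Bowtie2 to each strain's genome, shifted them to mm10 and deposited raw tag counts from HOMER in 1000-bp windows, without normalization. Replicate 2 of each strain, the inputs and the F1 columns were deposited in steps of 0.5, for which no reason is given, and these deposited values were handled like expected counts; F1 reads were counted by the authors per allele in 200-bp regions. Versions of these tools are not given in the sources used here.

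Values were rounded to whole counts. Windows averaging over 16 TMM-normalized counts were fitted with edgeR 4.0.16 in R 4.3.3 (robust quasi-likelihood test, 1 fit of 9 libraries, strain only), with Benjamini-Hochberg adjustment over all windows. The fit was tested on simulated data. F1 regions were fitted by allele on autosomes, and the difference between the strain and allele contrasts as an interaction. DESeq2 1.42.0, its size factors, no filter, a replicate block and leaving out each library were alternatives. Counting intervals (95%) and the floor of 3 counts cover counting error only. Motifs were counted on both strands in the GRCm38 genome, where 96238 windows had sequence.

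Named windows were, per gene, the nearest to the start site, the highest, each called one and, with none called, that of lowest p. Windows called only under the block, those around Hfe2 and the Hmox1 enhancers were added after their values were seen. Members and lists were chosen with earlier results of these data known. Replicate numbers were checked as pairs: deviations from strain means correlated at 0.227 to 0.414 in 9 same-number pairs and at −0.317 to 0.063 in others, so values with the replicate block are given where they change a call.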

Additional observations from a re-analysis of the deposited data

How the results depend on the processing

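The counts of called iron gene windows were 3, 7 and 9 in A/J over BALB/cJ, A/J over C57BL/6J and BALB/cJ over C57BL/6J, and the same under DESeq2, DESeq2 size factors or no filter. With the replicate block they were 4, 9 and 11, and without the second library of every strain 4, 8 and 11. Leaving out 1 library gave 1 to 3, 3 to 8 and 8 to 10. Gene sums gave 0, 1 and 1 in every alternative, each with the Hfe2 window at −36.0 kb in the sum. Among allelic regions 0 were called, also with any 1 library left out (0 to 0), but 1 under DESeq2 (Slc11a2 at 17.1 kb) and 1 with no filter (Slc11a2 at 11.7 kb). The interaction gave 0 throughout, 0 to 0 without 1 library.

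Over the 21 called values and their alternatives, 271 of 290 kept the call, 19 lost it, each when 1 library was left out, and 0 turned. The 123 uncalled values of named windows, tested regions and gene sums, over their alternatives, gave 12 calls in 1558 results: 4 without the second library of every strain, 1 under DESeq2, 1 with the replicate block (the other windows called under the block were not among the 123) and 6 without 1 library, namely Slc40a1 at −1.0 kb in A/J over C57BL/6J without A/J replicate 1 (1.10, adjusted p = 0.0454), Hfe2 at −24.2 kb without A/J replicate 2 or 3 (−1.02 and −1.07), Slc11a1 at 4.0 kb in BALB/cJ over C57BL/6J without BALB/cJ replicate 2 (−1.09, adjusted p = 0.0131) and Tfrc at −13.5 kb in that comparison without A/J replicate 2 (1.01) or C57BL/6J replicate 2 (1.22); adjusted p are from edgeR. Over all allelic regions, 292 were called without and 0 with the library as a block (782 at an unadjusted p under 0.05; 378 under DESeq2), 515 with no filter, 96 without CB6F1/J replicate 2 and 56 without replicate 3; the interaction gave 125 in all, 345 with the block and 256 with no filter. The cause was not tested. The block changed no member call other than the 5 windows named with it. Of 232 member regions, 180 had no read over a variant, though they held up to 1576 perfectly mapped reads (median 77.8), 37 had allelic reads under the filter and 15 were tested. The 37 held a median of 47.0 perfectly mapped reads and up to 613, and the 15 a median of 296 and up to 505.5. Why the 37 had few allelic reads was not tested.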
